A study of Mus musculus with 27 samples.

Results

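The transcripts of 10 genes of the mitochondrial death pathway were followed in DSS treated colon myeloid cells and splenic CD4 T cells of WT and Mbd2-/- mice. These were 8 members of the BCL2 family (Bcl2, Bcl2l1, Mcl1, Bax, Bak1, Bcl2l11, Bbc3 and Bid) together with Pmaip1 and Mdm2. Members were chosen by symbol in the deposited table of bead intensities, where 23 of 45281 probes carried one of these symbols, 10 of 30869 symbols in all. Pmaip1 and Mdm2 were put forward because of how they differed between Mbd2-/- and WT cDC1s, so every member value of that contrast is given here as a description without a test.

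Monocytes, macrophages and cDC1s, the conventional dendritic cells that lack CD11b and carry CD103, were sorted from the colon lamina propria and measured on Illumina MouseWG-6 BeadChips. All of these mice had received 2% dextran sodium sulfate (DSS), which injures the colon epithelium, so no untreated colon cells enter any comparison. Monocytes and macrophages each had 5 arrays per genotype, and cDC1s had 2 of WT and 3 of Mbd2-/-. Splenic CD4 T cells had 1 array per genotype, and their labels place them at 6 weeks in a colitis model made by T cell transfer. The Mbd2-/- animals (labelled Mbd2KO) lack the gene in all cells, on a C57BL/6 background, so a difference in one cell type need not start in that cell. Cells of several mice could be pooled for 1 array, up to 5 in the deposited record and up to 10 in the published methods. In such bulk samples fewer cells of a type and less RNA per cell cannot be told apart. Each array is a separate sample by its label, and p-values measure only the spread between these samples.

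BCL2 family proteins decide whether the outer mitochondrial membrane is opened. Bcl2, Bcl2l1 (BCL-XL) and Mcl1 hold it closed by binding their pro-apoptotic relatives, Bax and Bak1 are the effectors that form the pore, and the BH3-only proteins Bcl2l11 (BIM), Bbc3 (PUMA), Bid and Pmaip1 (NOXA) set the effectors free, with NOXA acting mainly on MCL1. Mdm2 is the ubiquitin ligase that holds p53 low, and Mdm2, Bbc3, Pmaip1 and Bax are themselves known p53 targets. Loss of BIM is known to prolong, and loss of MCL1 to shorten, the survival of many myeloid and lymphoid cells. Mbd2 encodes a reader of methylated CpG dinucleotides.

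The promoters of Mdm2 and Bcl2l11 are shown because both transcripts were lower in cDC1s than in macrophages and, still more, than in monocytes, and because CpG dinucleotides are the letters whose methylated form Mbd2 binds. Each run is the 250 bases before the RefSeq transcript start, read 5' to 3' on the gene's strand in build GRCm38.p6, with every CG in capitals. The Mdm2 run is chr10:117710759-117711008 on the minus strand and the Bcl2l11 run is chr2:128125788-128126037 on the plus strand.
Mdm2: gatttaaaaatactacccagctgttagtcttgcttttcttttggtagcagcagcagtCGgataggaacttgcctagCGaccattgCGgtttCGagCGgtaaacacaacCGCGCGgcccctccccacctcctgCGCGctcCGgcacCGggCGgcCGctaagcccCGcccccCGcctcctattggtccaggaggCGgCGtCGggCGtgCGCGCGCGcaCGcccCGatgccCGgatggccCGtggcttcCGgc
Bcl2l11: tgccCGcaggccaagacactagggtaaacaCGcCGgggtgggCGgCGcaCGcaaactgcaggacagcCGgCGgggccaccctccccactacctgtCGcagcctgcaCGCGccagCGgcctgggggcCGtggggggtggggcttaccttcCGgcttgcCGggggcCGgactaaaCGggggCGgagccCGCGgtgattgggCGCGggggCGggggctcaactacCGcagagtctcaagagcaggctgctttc
Bcl2l11 has a second listed start further downstream, whose run held 30 CG and is not shown. Mcl1 was lower in cDC1s too, and its run is not shown because it lies inside the annotated bounds of the gene. The Mdm2 run held 29 CG and the Bcl2l11 run shown 24, where the median of 32851 promoters of the same length was 6 and the quartiles were 2 and 16. At least as many CG as in these runs were found in 6.78% and 12.0% of all promoters. The 14 listed promoters of 9 members ranged from 0 CG, before one of the Bcl2l1 starts, to 37, before one of the Bbc3 starts, with a median of 23.5. The Bcl2 run held 36, Mcl1 26, Bid 18, Bax 14 and Bak1 8. No methylation was measured, so these counts describe the reference sequence alone.

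Values below are log2 intensities after background correction and quantile normalization of the 25 colon arrays, and differences are log2 differences. A probe counts as detected on an array at a detection p under 0.05, as tested where enough arrays of the compared groups detected it, and as passed at a limma adjusted p under 0.05. The level of one probe cannot be set against that of another. Of the 23 probes, 22 were detected on at least 1 colon array, and the brightest probe of each gene is called its leading probe. Mean raw intensity per array ran from 172 to 353, lowest in Mbd2-/- cDC1s (172 to 228, against 265 and 292 in WT cDC1s), and 16024 to 18608 probes were detected. The probe of Mbd2 itself was not detected on any array, so it gives no check of the genotype labels. The cell type labels matched the markers. The mean of the cDC1 marker list (such as Xcr1, Clec9a and Batf3) was 9.20 to 9.58 on cDC1 arrays and at most 6.14 elsewhere, that of the macrophage list 10.03 to 10.56 on macrophage arrays, 9.19 to 9.50 on monocyte arrays and 6.64 to 7.59 on cDC1 arrays, and that of the monocyte list 7.81 to 8.18 on monocyte arrays and at most 6.61 elsewhere. One WT cDC1 array, array 23, stood apart. Its mean over the immediate early and heat shock list was 10.61, against 9.72 on the other WT cDC1 array (array 26) and 9.44 to 9.73 on Mbd2-/- cDC1 arrays. The other colon arrays read 9.25 to 10.36. The epithelial and T cell lists were also higher on array 23 than on array 26, though some other colon arrays had similar means. The epithelial mean was 8.17 there, 6.68 on array 26 and 6.89 to 8.15 on the other colon arrays. The T cell mean was 7.21 there, 5.77 on array 26 and 7.28 on Mbd2-/- cDC1 array 28. The part of epithelial transcripts in the values of array 23 was not tested. Over all 5 cDC1 arrays the T cell list mean was 5.51 to 7.28, against 5.02 to 6.03 on the other colon arrays, and its part in the cDC1 differences was not tested. Results that rest on array 23 are given with and without it.

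Monocytes and macrophages shared no block of 6 neighbouring columns of the deposited table, and the sources used here do not say whether such a block is one chip. WT cDC1s lay in the blocks of the monocytes and Mbd2-/- cDC1s in those of the macrophages and the T cells. Column block and cell type therefore cannot be told apart for macrophages against monocytes, and column block and genotype cannot be told apart within cDC1s.

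Pmaip1, which encodes the BH3-only protein NOXA, spanned the widest range over the colon arrays of the 10 leading probes. It was put forward from how the WT and Mbd2-/- cDC1 arrays differed, and its highest value is on one of them, so this rank is a description without a test. Its leading probe read 5.14, 5.46, 4.75, 4.43 and 5.31 on the WT monocyte arrays 1 to 5 and 5.94, 4.82, 4.57, 5.01 and 5.25 on the Mbd2-/- monocyte arrays 6 to 10. WT macrophage arrays 11 to 15 read 4.56, 4.39, 4.60, 4.61 and 5.37, and Mbd2-/- macrophage arrays 16 to 20 read 5.43, 4.72, 6.20, 6.80 and 8.14. WT cDC1 arrays 23 and 26 read 9.68 and 6.73, and Mbd2-/- cDC1 arrays 27, 28 and 30 read 6.57, 4.96 and 4.92. Monocytes of both genotypes and WT macrophages thus lay near the detection limit, with only 2 of 5 WT macrophage arrays detected, while 5 of 5 Mbd2-/- macrophage arrays were. The SD was 2.10 in WT cDC1s (n = 2), 0.94 in Mbd2-/- cDC1s (n = 3) and 1.30 in Mbd2-/- macrophages (n = 5), against 0.38 to 0.52 in the other groups. The second Pmaip1 probe followed the same arrays (r = 0.95 over the 25 colon arrays, which share normalization and cell types), and the third was detected on 1 array.

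**Figure D1:**
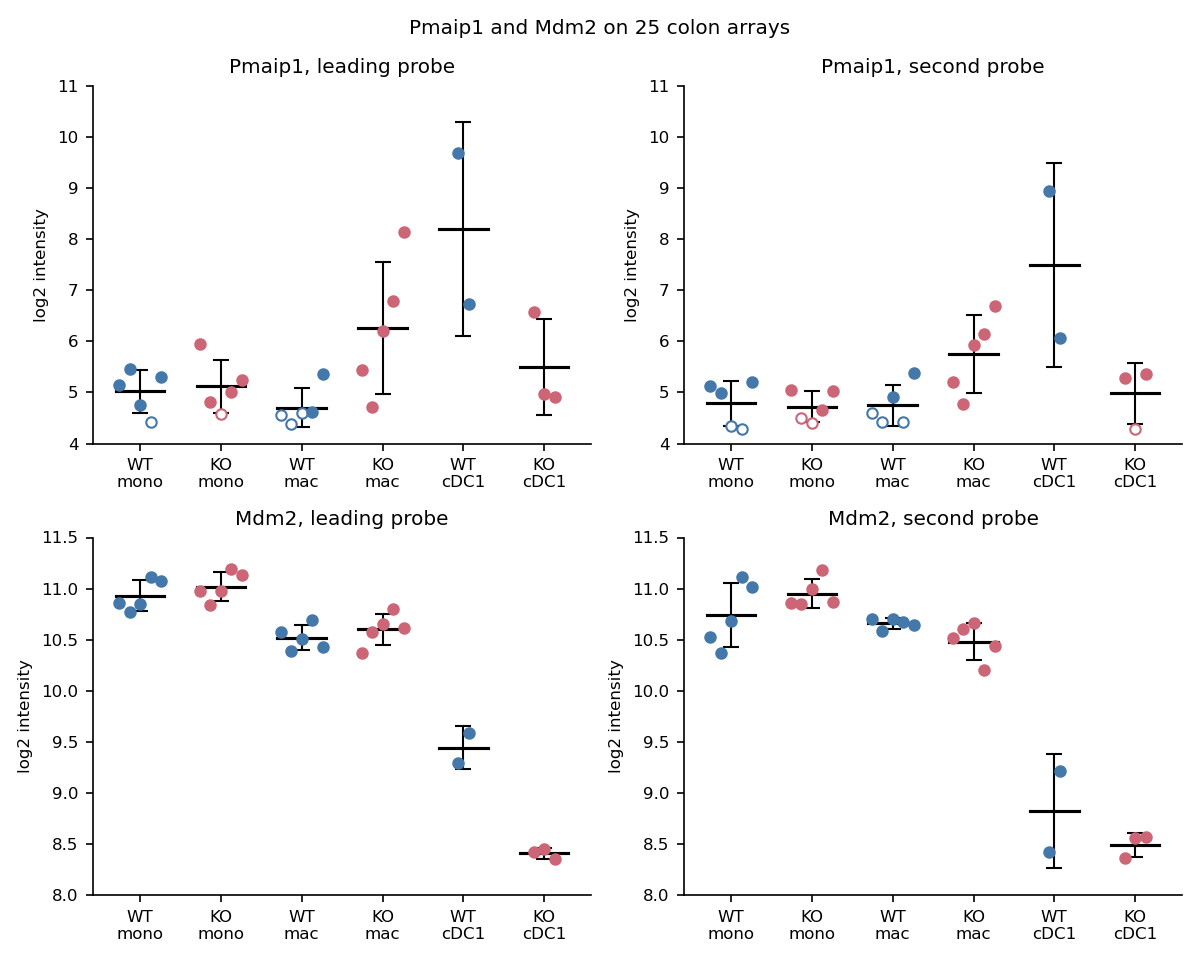
Log2 intensity of the leading and second probes of Pmaip1 (top) and Mdm2 (bottom) on each colon array, by cell type and genotype (mono, monocytes; mac, macrophages; KO, Mbd2-/-; 5, 5, 5, 5, 2 and 3 arrays). Open circles were not detected, and black bars are the mean and SD. Pmaip1 is spread from 4.39 to 9.68 with WT cDC1 array 23 at the top, and both Mdm2 probes place every cDC1 array below every other array.

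Between cell types, with both genotypes weighted equally, leading-probe Pmaip1 was 1.36 higher in cDC1s than in macrophages (SE 0.46, limma adjusted p = 0.0159) and 1.78 higher than in monocytes (SE 0.46, adjusted p = 0.0023). Neither difference held without WT cDC1 array 23, where they were 0.63 (adjusted p = 0.30) and 1.04 (adjusted p = 0.079). Without Mbd2-/- cDC1 array 27 the first was 1.09 (adjusted p = 0.061). With WT arrays alone cDC1s were 3.50 above macrophages, and with Mbd2-/- arrays alone the difference was -0.77. Against monocytes these values were 3.19 and 0.37. Pmaip1 was put forward from how these WT and Mbd2-/- cDC1 arrays differed, so the single-genotype values are given as a description without a test. Macrophages and monocytes did not differ beyond their spread (0.41, SE 0.37, adjusted p = 0.414). The order of the means, which rests on the same cDC1 arrays and is likewise a description, differed by genotype. It was cDC1s (8.20), monocytes (5.02) and macrophages (4.70) in WT, and macrophages (6.26), cDC1s (5.49) and monocytes (5.12) in Mbd2-/-. The immediate early and heat shock list was also high on array 23, and its part in the Pmaip1 values was not tested.

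Mdm2, the p53 ligase, was the member that most clearly separated cDC1s from the other colon cells. Its leading probe read 10.77 to 11.19 on the 10 monocyte arrays (median 10.98) and 10.37 to 10.80 on the 10 macrophage arrays (median 10.57). The WT cDC1 arrays 23 and 26 read 9.29 and 9.59, and the Mbd2-/- cDC1 arrays 27, 28 and 30 read 8.42, 8.45 and 8.35. No cDC1 array overlapped a monocyte or macrophage array. The difference was -1.64 from macrophages (SE 0.087, 3.11-fold lower, adjusted p = 1.58e-13) and -2.06 from monocytes (SE 0.088, 4.16-fold lower, adjusted p = 2.37e-15). Both comparisons use the same cDC1 arrays. Within the column blocks that WT cDC1s share with monocytes the difference was -1.50, and Mbd2-/- cDC1s lay 2.19 below Mbd2-/- macrophages (difference -2.19). Mdm2 was put forward from how the WT and Mbd2-/- cDC1 arrays differed, so these single-genotype values are given as a description without a test. Macrophages were also 0.42 below monocytes (-0.42, SE 0.071, adjusted p = 4.74e-05), although their arrays overlapped, which gave the order monocytes, macrophages, cDC1s with each step passing. The second Mdm2 probe gave the same order, at -0.28, -1.91 and -2.19 (adjusted p = 0.0333, 6.63e-12 and 5.29e-13), and correlated with the first at r = 0.96 over the 25 arrays. The third was detected on 2 arrays.

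Counting all members, 13 of 17 tested probes passed between cDC1s and macrophages (5 higher and 8 lower in cDC1s, from 8 genes), where 52.9% of all tested probes passed, 27.3% higher and 25.6% lower. Between cDC1s and monocytes 10 of 18 passed (3 higher and 7 lower, from 5 genes), against 53.4% of all, 27.6% higher and 25.9% lower. Between macrophages and monocytes 9 of 17 passed (2 higher and 7 lower in macrophages, from 5 genes), against 38.7% of all, 20.6% higher and 18.0% lower. The median difference of the member probes was -0.11, -0.17 and -0.12, beside -0.01, -0.01 and 0.00 for all tested probes. Arrays did not overlap for 5 member probes in each cDC1 comparison and for 1 between macrophages and monocytes, where 21.4%, 26.2% and 7.67% of all probes did not. All of these member probes were lower in the first-named cells, as were 11.1%, 12.2% and 2.91% of all probes.

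**Figure D2:**
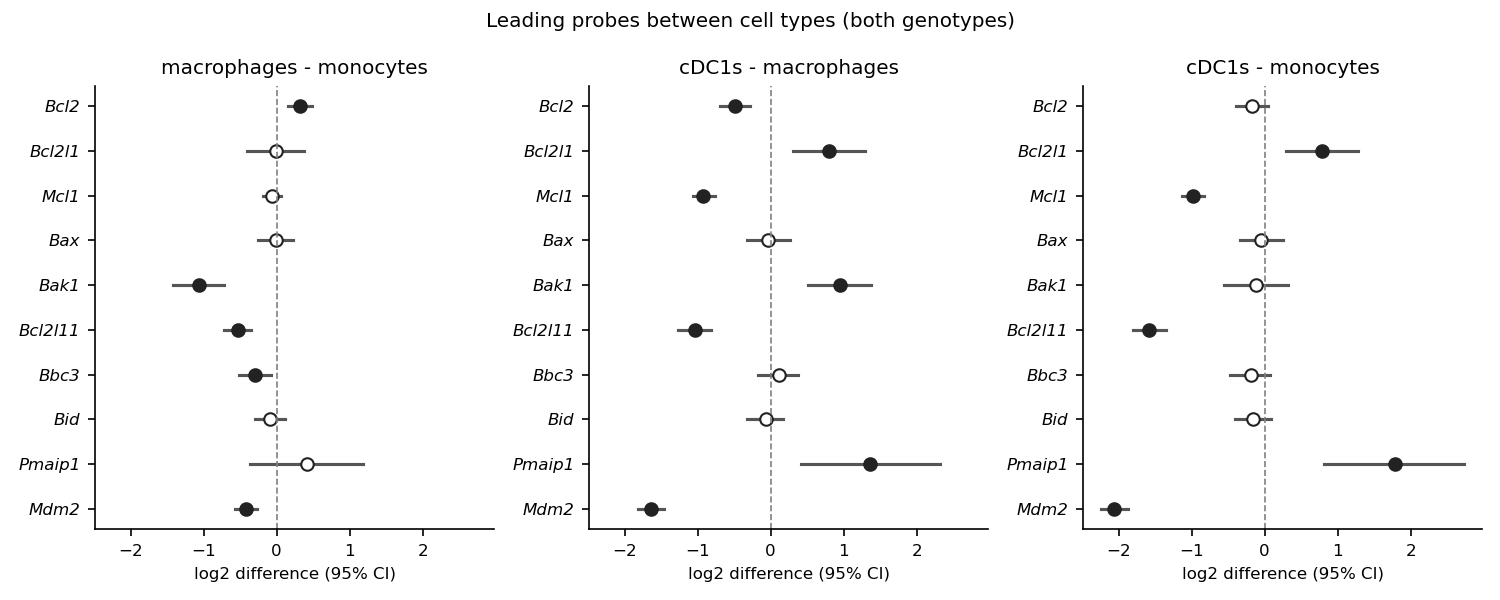
Log2 difference of the leading probe of each member (x axis) in macrophages against monocytes, cDC1s against macrophages and cDC1s against monocytes, with both genotypes weighted equally. Lines are 95% confidence intervals of the fitted model without adjustment for the number of probes, and filled circles passed at an adjusted p under 0.05. Mdm2, Bcl2l11 and Mcl1 lie left of 0 in both cDC1 comparisons, and Pmaip1 and Bcl2l1 lie right of 0.

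Among the anti-apoptotic members, Mcl1 was lower in cDC1s and alike in the other cells, Bcl2 was highest in macrophages, and Bcl2l1 was dim. Mcl1, whose short-lived protein must be made continuously, read 12.47 to 13.05 on monocyte arrays (median 12.67) and 12.49 to 12.80 on macrophage arrays (median 12.63). WT cDC1 arrays read 11.77 and 11.88, and Mbd2-/- cDC1 arrays read 11.61, 11.60 and 11.61, with no overlap with either other cell type. Mcl1 was 0.92 lower in cDC1s than in macrophages (-0.92, SE 0.073, adjusted p = 2.47e-10) and 0.98 lower than in monocytes (-0.98, SE 0.074, adjusted p = 7.47e-11). Macrophages and monocytes did not differ beyond their spread (-0.06, 95% interval -0.18 to 0.06).

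Bcl2 has 1 probe for each of 2 RefSeq transcript variants. The leading one, for variant 2, read 5.46 to 6.26 in monocytes (median 5.75), 5.83 to 6.45 in macrophages (median 6.07) and 5.69, 5.66, 5.73, 5.53 and 5.37 on cDC1 arrays 23, 26, 27, 28 and 30. Macrophages lay 0.32 above monocytes (SE 0.083, adjusted p = 0.00365), and cDC1s lay 0.49 below macrophages without overlap (-0.49, SE 0.10, adjusted p = 0.000297). cDC1s and monocytes, the neighbours at the lower end, did not differ beyond their spread (-0.17, adjusted p = 0.162). The probe of variant 1 placed macrophages highest too, 0.79 above monocytes (adjusted p = 2.87e-05) and 0.54 above cDC1s (cDC1 difference -0.54, adjusted p = 0.00607).

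Bcl2l1, which encodes BCL-XL, was detected on 15 of 25 arrays by its leading probe. It read 4.37 to 5.81 in monocytes (median 4.75) and 4.27 to 5.61 in macrophages (median 4.51), and 5.26, 6.22, 5.67, 5.02 and 5.65 on the cDC1 arrays in the order above. The probe was detected on every cDC1 array, but on only 1 of 5 WT and 3 of 5 Mbd2-/- macrophage arrays. It thus entered the test against macrophages through the group in which it was high, and most macrophage values lay near background. cDC1s were 0.80 above macrophages (SE 0.24, adjusted p = 0.00713) and 0.78 above monocytes (SE 0.24, adjusted p = 0.00785). Without WT cDC1 array 26 neither passed (0.56, adjusted p = 0.10, and 0.54, adjusted p = 0.108), and neither passed under median scaling (0.55 and 0.58) or with Mbd2-/- arrays alone (0.42 and 0.39). Of its other probes, one was detected on 4 arrays and one on none.

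**Figure D3:**
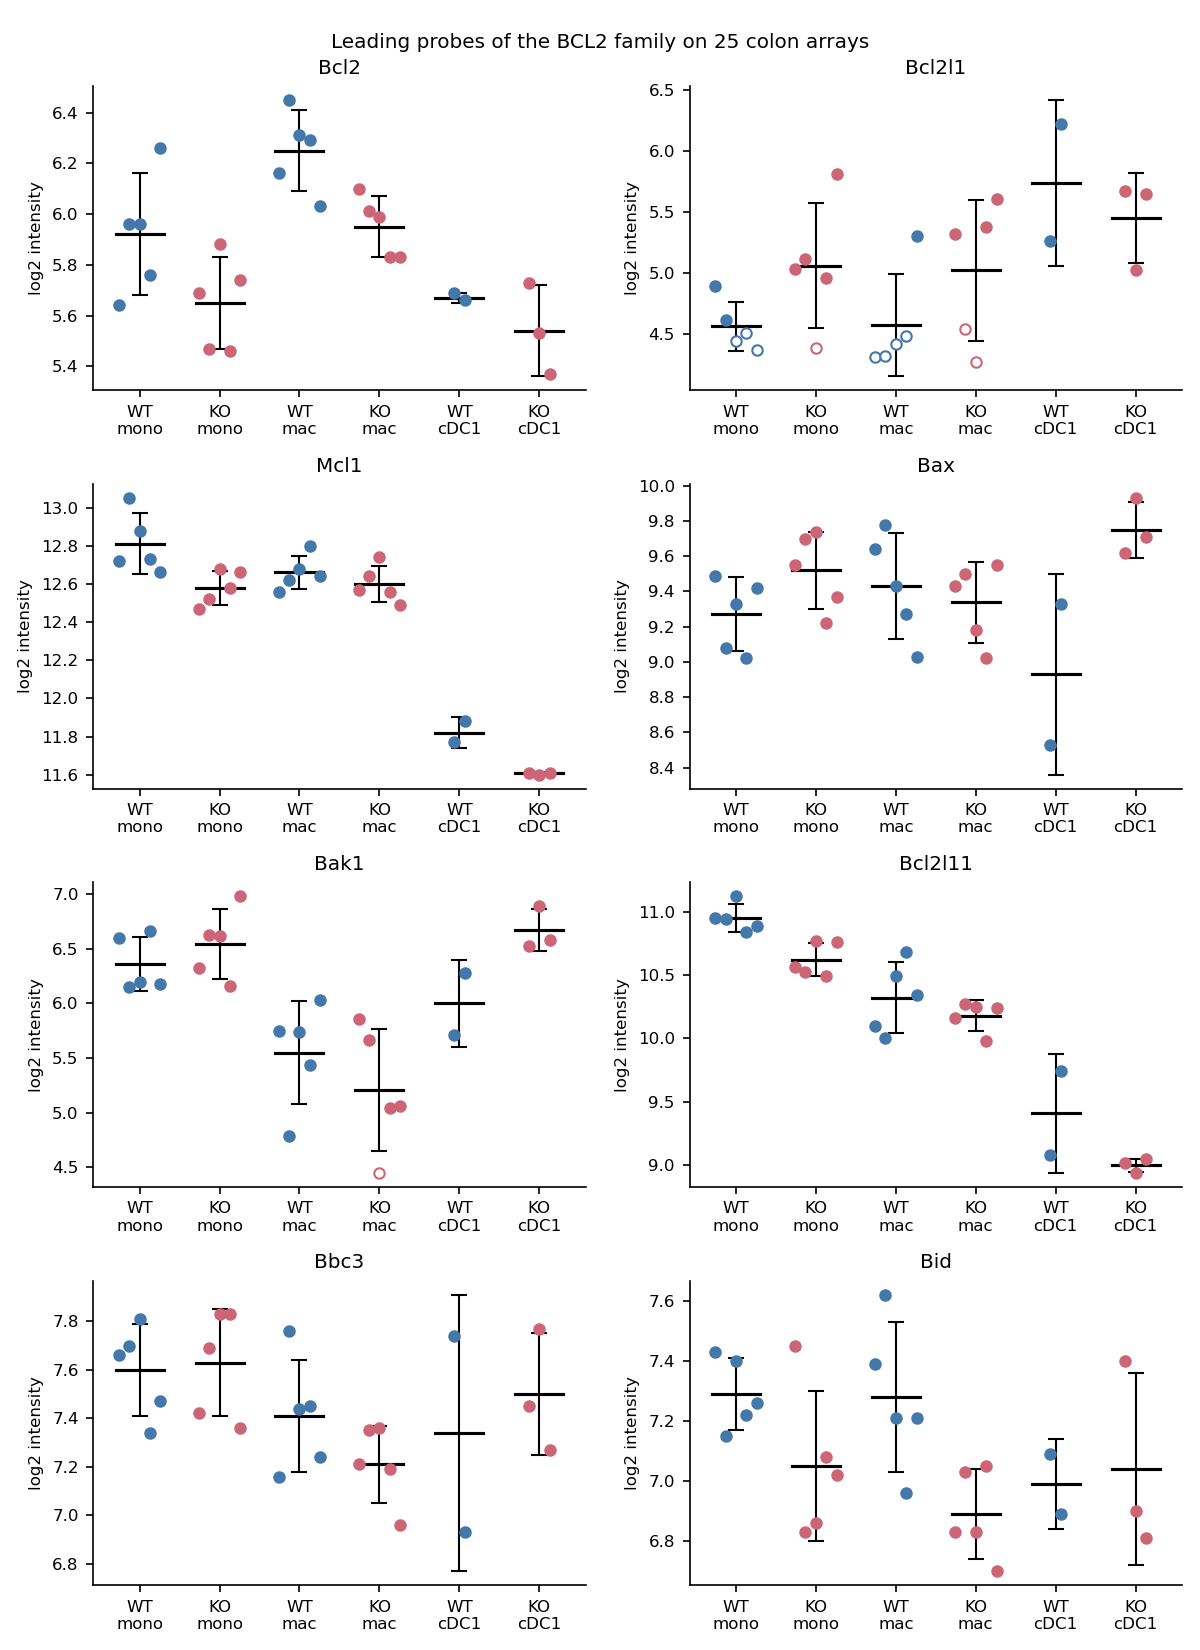
Log2 intensity of the leading probes of the 8 BCL2 family members other than Pmaip1 on each colon array, by cell type and genotype (abbreviations as for Pmaip1 and Mdm2), with a y axis of its own for each gene. Open circles were not detected, and black bars are the mean and SD of 5, 5, 5, 5, 2 and 3 arrays. Mcl1 and Bcl2l11 are lowest on all 5 cDC1 arrays, and Bak1 is lower on macrophage than on monocyte arrays.

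The effectors differed from each other. Bak1 read 6.15 to 6.98 in monocytes (median 6.46), 4.45 to 6.03 in macrophages (median 5.56) and 5.71, 6.28, 6.53, 6.89 and 6.58 on the cDC1 arrays. Every macrophage array lay below every monocyte array, a difference of -1.07 (SE 0.17, 2.10-fold lower, adjusted p = 2.33e-05). cDC1s were 0.95 above macrophages (SE 0.21, adjusted p = 0.00056), which median scaling took to 0.57 (adjusted p = 0.0596) and WT arrays alone to 0.45 (adjusted p = 0.289). cDC1s and monocytes did not differ beyond their spread (-0.12, adjusted p = 0.66). Bax read 9.02 to 9.74 in monocytes, 9.02 to 9.78 in macrophages and 8.53 to 9.93 in cDC1s. None of its 3 cell type differences passed (-0.01, -0.04 and -0.05), with 95% intervals that lay between -0.34 and 0.26.

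Of the BH3-only members, Bcl2l11 was highest in monocytes, lower in macrophages and lowest in cDC1s. Its leading probe read 10.49 to 11.12 in monocytes (median 10.80), 9.98 to 10.68 in macrophages (median 10.24) and 9.08, 9.74, 9.02, 8.94 and 9.05 on cDC1 arrays 23, 26, 27, 28 and 30. Macrophages lay 0.53 below monocytes (-0.53, SE 0.089, adjusted p = 4.59e-05) with overlapping arrays. cDC1s lay below both without overlap, by -1.04 from macrophages (SE 0.11, adjusted p = 2.91e-08) and -1.58 from monocytes (SE 0.11, 2.98-fold lower, adjusted p = 2.26e-11). WT cDC1s alone lay -1.54 from WT monocytes, within the column blocks they share. The direction was the same for all 3 other Bcl2l11 probes in all 3 comparisons. Those that missed the threshold were the second probe in cDC1s against macrophages (-0.11, adjusted p = 0.826) and the fourth in macrophages against monocytes (-0.12, adjusted p = 0.276).

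Bbc3 and Bid moved little between colon cells. Leading-probe Bbc3 read 7.34 to 7.83 in monocytes (median 7.68), 6.96 to 7.76 in macrophages (median 7.29) and 6.93 to 7.77 in cDC1s. Macrophages were 0.30 below monocytes (-0.30, SE 0.11, adjusted p = 0.0304), which missed the threshold in 7 of the 20 fits that left out 1 array, under median scaling (-0.24, adjusted p = 0.338) and with WT arrays alone (-0.19, adjusted p = 0.421). Against monocytes the leading-probe difference of cDC1s was -0.19 (adjusted p = 0.234), and -0.40 (adjusted p = 0.0242) without WT cDC1 array 23. The second Bbc3 probe was 0.30 higher in cDC1s than in macrophages (SE 0.11, adjusted p = 0.029), where the leading one gave 0.11 (adjusted p = 0.527), and these probes correlated at r = 0.15 over the 25 arrays. Bid read 6.83 to 7.45 in monocytes, 6.70 to 7.62 in macrophages and 6.81 to 7.40 in cDC1s, with differences of -0.07 to -0.16 that did not pass. On the quantile scale Bax, Bbc3 and Bid showed no passed cDC1 difference by their leading probes. Median scaling shifted the median of all probes by -0.33 and -0.31 in the 2 cDC1 comparisons and passed Bax (-0.64 and -0.65), Bid (-0.59 and -0.61) and, against monocytes, Bbc3 (-0.71) and Bcl2 (-0.42) as lower in cDC1s. Relative to that shift the Mdm2 differences were -1.94 and -2.46, Bcl2l11 -1.36 and -1.96, and Mcl1 -1.24 and -1.35.

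The question of what loss of Mbd2 changed in these transcripts was tested in monocytes and macrophages. In monocytes 0 of 17 member probes passed with limma and 5 had an unadjusted p under 0.05, where 1.80% and 13.8% of all tested probes did. In macrophages 0 of 16 passed and 6 had an unadjusted p under 0.05, where 5.67% and 23.7% did. The median difference of the member probes was 0.10 and -0.08, beside -0.02 and -0.07 for all tested probes. The test of the difference between these genotype effects passed for 0 of 18 probes, with 0 at an unadjusted p under 0.05 (0.0266% and 6.99% of all).

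**Figure D4:**
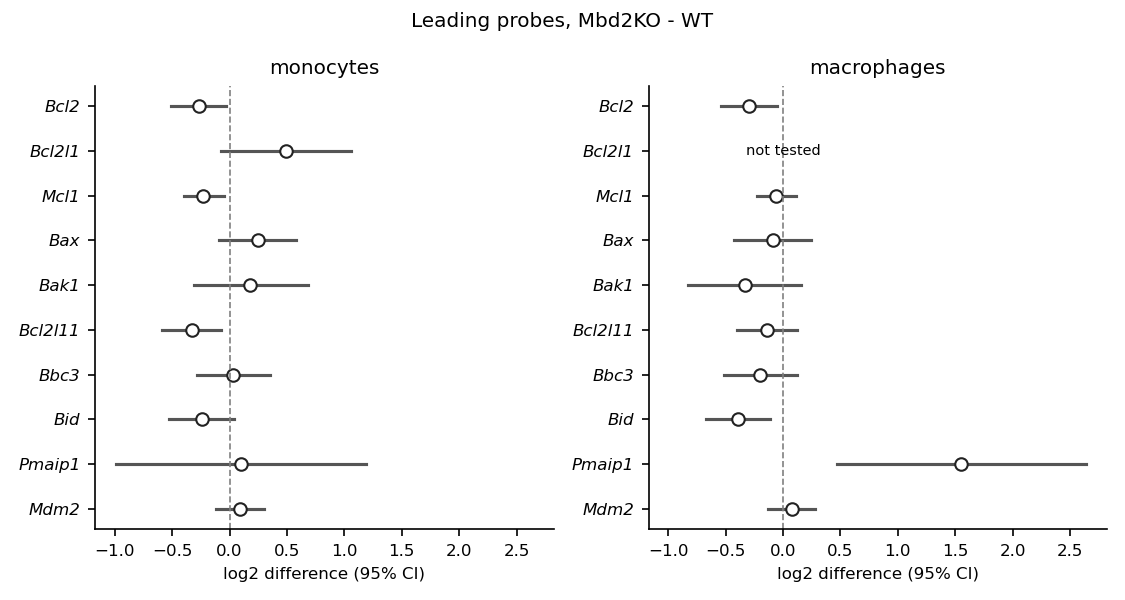
Log2 difference of the leading probe of each member between Mbd2-/- and WT (x axis) in monocytes and macrophages, 5 against 5 arrays each. Lines are 95% confidence intervals of the fitted model without adjustment for the number of probes. Every circle is open because none passed at an adjusted p under 0.05, and Pmaip1 in macrophages is farthest from 0 at 1.55.

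Pmaip1 had the largest genotype difference of the leading probes in macrophages, 1.55 (SE 0.52, limma unadjusted p = 0.00712, adjusted p = 0.0782). The probe was detected on 2 of 5 WT and 5 of 5 Mbd2-/- macrophage arrays, so it entered the test through the group in which it was high, and the WT level was mostly not above background. Of the array values given above, 4 of 5 Mbd2-/- arrays lay above every WT array, and array 17 (4.72) lay among them. Without Mbd2-/- array 17 the difference was 1.94 (adjusted p = 0.0286), and over all fits that left out 1 array it ran from 1.09 to 1.94. Within column blocks it was 2.95 in the block holding Mbd2-/- arrays 19 and 20 and 0.46 in the other. The second probe gave 1.01 (SE 0.40, adjusted p = 0.133). In monocytes the Pmaip1 difference was 0.10 (95% interval -0.99 to 1.19). The difference between these genotype effects was 1.45 (SE 0.74, adjusted p = 0.719). Array 20, with the highest Pmaip1 of the macrophages, was the dimmest macrophage array (mean raw intensity 203), and the part of brightness in its value was not tested. Marker lists moved in the same contrast. Of the monocyte list 2 of 4 tested probes passed as higher in Mbd2-/- macrophages (median 0.38, list means 6.06 to 6.51 in WT and 6.24 to 6.61 in Mbd2-/-), as did 1 of 11 of the macrophage list and the 1 eosinophil probe (0.91). The NK, B and plasma cell and cDC1 lists each had 1 probe that passed as lower, and the part of these cells was not tested.

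Neither tested Mdm2 probe passed by genotype in these cells. For the leading probe monocyte means were 10.93 ± 0.15 (WT) and 11.02 ± 0.14 (Mbd2-/-), and macrophage means 10.52 ± 0.12 (WT) and 10.60 ± 0.15 (Mbd2-/-), each as mean ± SD with n = 5. The differences of 0.09 and 0.08 had 95% intervals of -0.12 to 0.30 and -0.13 to 0.28. Within column blocks they were 0.33 and -0.16 in monocytes and 0.21 and -0.03 in macrophages. The second probe gave 0.21 in monocytes and, with the opposite sign, -0.17 in macrophages (limma adjusted p = 0.554 and 0.488).

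Bcl2 transcripts tended to lower values in Mbd2-/- cells without passing. The variant 1 probe read 5.37, 5.59, 5.79, 5.68 and 6.06 on WT monocyte arrays and 5.24, 5.04, 4.66, 5.12 and 5.21 on Mbd2-/- monocyte arrays, without overlap (4.85% of all tested probes did not overlap, 2.88% with the Mbd2-/- arrays lower). The difference was -0.65 (SE 0.18, adjusted p = 0.0684). It passed with array weights (-0.60, adjusted p = 0.0258) and when monocytes were normalized and fitted alone (-0.65, adjusted p = 0.0478). The B and plasma cell list was lower on the same arrays (means 5.27 to 5.62 against 5.65 to 5.91 in WT, 2 of 7 tested probes passed), and so was the NK list (5.08 to 5.31 against 5.39 to 5.78, 1 of 2 passed). Their part in the Bcl2 values was not tested. The variant 2 probe gave -0.27 in monocytes (adjusted p = 0.291) and -0.30 in macrophages (adjusted p = 0.127), and variant 1 gave -0.27 in macrophages (adjusted p = 0.372).

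Bcl2l11 probes disagreed on the sign. Its leading probe read 10.95, 10.94, 11.12, 10.84 and 10.89 on WT monocyte arrays and 10.56, 10.52, 10.77, 10.49 and 10.76 on Mbd2-/- monocyte arrays, without overlap (-0.33, SE 0.13, adjusted p = 0.219). The other 3 probes had positive differences in both cell types, from 0.27 to 0.33 in monocytes and from 0.12 to 1.13 in macrophages, and none passed. In macrophages the second probe passed without WT array 15 (1.45, adjusted p = 0.0287). The fourth was detected on 1 of 5 WT and 5 of 5 Mbd2-/- macrophage arrays and so entered the test through the group in which it was high. It passed without Mbd2-/- array 17 (0.43, adjusted p = 0.0437) and under cyclic loess (0.44, adjusted p = 0.0479). Bid was -0.39 in macrophages (unadjusted p = 0.0091, adjusted p = 0.0873) and -0.24 in monocytes (adjusted p = 0.453). Mcl1, Bax, Bak1 and Bbc3 had differences between -0.33 and 0.25 with adjusted p of 0.192 or more in both cell types. Bcl2l1 was tested in monocytes (0.49, adjusted p = 0.446) and was too dim for a test in macrophages.

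In cDC1s the genotype contrast was the one that put Pmaip1 and Mdm2 forward, and its values are described without a test. 4 of 17 member probes had an adjusted p under 0.05 there, 3 of them probes of Pmaip1 and Mdm2, beside 6.62% of all tested probes. Nothing is read from that share, since the members were put forward from it. Pmaip1 differed by -2.72 at its leading and -2.53 at its second probe, and leaving out one array at a time gave -4.20 (without WT array 26) to -1.24 for the leading probe. The nearest arrays were WT array 26 (6.73) and Mbd2-/- array 27 (6.57), and the difference without WT array 23 was -1.24. Mdm2 differed by -1.03 at its leading probe, with 9.29 and 9.59 in WT against 8.35 to 8.45 in Mbd2-/-. Its second probe differed by -0.32, with 8.42 and 9.21 against 8.36, 8.56 and 8.57, so that the genotypes overlapped there.

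Of the other members in cDC1s, Bax read 8.53 and 9.33 in WT and 9.62, 9.93 and 9.71 in Mbd2-/- (0.82). Bak1 read 5.71 and 6.28 against 6.53, 6.89 and 6.58 (0.67). Without WT array 23 these differences were 0.42 and 0.39. Bak1 was 0.15 under median scaling. Bcl2l11 differed by -0.41, and by -0.74 without WT array 23 and -0.07 without WT array 26. Mcl1 differed by -0.22 (-0.27 to -0.16 with one array left out) and Bcl2 by -0.13 (-0.23 to -0.05, the ends without Mbd2-/- arrays 27 and 30). Bcl2l1 (-0.29), Bbc3 (0.16) and Bid (0.05) had no settled sign. With one array left out they ran from -0.78 to 0.19, from -0.25 to 0.56 and from -0.14 to 0.16. The ends were the fits without WT arrays 23 and 26 for Bcl2l1 and Bbc3, and without Mbd2-/- arrays 27 and 30 for Bid. Of the other pathway genes, Bad differed by 0.51 (means 8.05 in WT and 8.56 in Mbd2-/-) and Junb by -0.65 (11.97 and 11.32). They are named because a probe of each had a limma adjusted p under 0.05 in this contrast. That was 1 of 8 tested probes of the pro-apoptotic and 1 of 16 of the immediate early and heat shock list. It was 0 of 7, 0 of 23 and 0 of 27 in the anti-apoptotic, caspase and p53 lists, beside 6.62% of all. Nothing is read from these 2 genes. Raw brightness and column block moved with genotype in these 5 arrays. Marker lists without overlap between the genotypes were higher in Mbd2-/- for macrophages (6.64 and 6.67 in WT, 6.72 to 7.59), monocytes (6.04 and 6.31, 6.34 to 6.56) and the 1 eosinophil probe (4.55 and 5.07, 5.84 to 6.41). They were lower in Mbd2-/- for cDC1s (9.47 and 9.58 in WT, 9.20 to 9.44) and NK cells (6.00 and 6.26, 5.70 to 5.80). The T cell, B and plasma cell, epithelial and neutrophil lists overlapped. Groups of 2 and 3 arrays can separate easily by chance, and the macrophage gap was only 6.67 against 6.72, so no shift in cell content is read from this. The lower cDC1 mean was not shared by the list as a whole. Its median difference was -0.01 over 13 tested probes, and the 2 that passed, both lower, belonged to 1 gene. The part of these marker lists in the differences was not tested.

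Other genes of the pathway were read from lists written with earlier results of these data known. A gene is counted where any of its probes passed, so its share is not that of the probes, which is given beside it. In the list of other p53 pathway genes, 10 of 17 tested genes had a passed probe between cDC1s and macrophages, 9 lower and 1 higher in cDC1s. By probe 15 of 29 passed, 2 higher and 13 lower, where 52.9% of all tested probes passed, 27.3% higher and 25.6% lower, and the median was -0.22 beside -0.01 for all. The cell cycle inhibitor Cdkn1a (p21) was -2.05 and -2.14 at its 2 passed probes and the growth regulator Ddit4 was -3.19. The stress gene Sesn1 was -2.35 and -2.47, Gadd45a -1.11 and -1.16, and Plk2 -1.46, and the death receptor Fas was lower at 1 probe (adjusted p = 2.63e-06). Rrm2b was -0.67, Trp53inp1 -0.65 and -0.68, Ccng1 -0.47, and Ei24 0.60 and 0.69.

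Against monocytes 8 of 17 genes of the p53 list had a passed probe, 7 lower and 1 higher in cDC1s (14 of 27 probes, beside 53.4% of all). Ddit4 was -3.61, Fas -1.16 and -2.46, Gadd45a -1.95 and -2.02, and Cdkn1a -1.63, -2.19 and -2.29. Sesn1 was -1.11 and -1.29, Plk2 -0.66, Trp53inp1 -0.47 and -0.63, and Zmat3 0.52. Between macrophages and monocytes 10 of 17 had a passed probe, 6 higher and 4 lower in macrophages (13 of 27 probes, beside 38.7% of all). Sesn1 (1.18 and 1.25), Plk2 (0.80), Zmat3 (0.69), Rrm2b (0.61), Ccng1 (0.45) and Phlda3 (0.43) were higher. Cdkn1a (-1.54), Fas (-0.98 and -1.46), Gadd45a (-0.83 and -0.86) and Ddit4 (-0.42) were lower. By genotype in macrophages 3 of 17 genes had a passed probe (3 of 29 probes, beside 5.67% of all). Gadd45a (0.84, adjusted p = 0.0462) and Fas (0.78, adjusted p = 0.0495) were higher and Rrm2b lower (-0.53, adjusted p = 0.0181) in Mbd2-/-, each at 1 probe. By genotype in monocytes 1 of 17 had one (1 of 27 probes, beside 1.80% of all), Sesn1, lower in Mbd2-/- at 1 probe (-0.70, adjusted p = 0.00364). The median over the p53 list probes was -0.11 for cDC1s against monocytes and 0.03 for macrophages against monocytes. Without WT cDC1 array 23 Ei24 no longer passed (0.62 and 0.72, adjusted p = 0.093 and 0.0867), the 9 lower genes did, and against monocytes 3 genes were higher and 7 lower.

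Of the other anti-apoptotic BCL2 genes, 3 of 4 tested were higher in macrophages than in monocytes (Bcl2a1b 0.38, Bcl2a1d 0.38, and Bcl2l2 0.31 and 0.41) and the same 3 were lower in cDC1s than in macrophages (Bcl2a1b -0.46, Bcl2a1d -0.52, and Bcl2l2 -0.81 and -0.85). Bcl2a1b and Bcl2a1d are near-identical copies, so their probes may read each other's transcripts. Against monocytes 1 of 4 was lower in cDC1s (Bcl2l2, -0.33 to -0.50 over 3 probes). Of the other pro-apoptotic BCL2 genes, Bcl2l14 stood out in cDC1s, 2.25 and 3.00 above macrophages and 2.46 and 2.99 above monocytes at its 2 probes. Bad was lower in cDC1s (-0.26 from macrophages and -0.50 from monocytes), and Bmf (-0.89) and Bcl2l13 (-0.33) were lower in cDC1s than in monocytes, so 2 of 6 and 4 of 6 tested genes passed. Bmf (-0.52), Bcl2l13 (-0.39 and -0.49) and Bad (-0.24) were lower in macrophages than in monocytes, 3 of 6. For macrophages against monocytes, cDC1s against macrophages and cDC1s against monocytes, 4 of 6, 4 of 7 and 3 of 7 probes passed in the anti-apoptotic list and 4 of 8, 3 of 8 and 5 of 8 in the pro-apoptotic list, beside 38.7%, 52.9% and 53.4% of all. The median over the probes was 0.34, -0.46 and -0.14 in the anti-apoptotic list and -0.24, 0.04 and -0.25 in the pro-apoptotic list. Without WT cDC1 array 23 Bcl2a1b (-0.30, adjusted p = 0.147) and Bad (-0.24, adjusted p = 0.0588) no longer passed in cDC1s against macrophages, and Bmf (-0.57, adjusted p = 0.0226) and Bcl2l13 (0.44, adjusted p = 0.0144) did. By genotype in monocytes and macrophages 0 genes of either list passed. In the anti-apoptotic list 1 of 7 tested probes in monocytes had an unadjusted p under 0.05, beside 13.8% of all.

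Among caspases, apoptosome parts and their inhibitors, 9 of 10 tested genes had a passed probe between cDC1s and macrophages, 4 with a higher and 6 with a lower one (15 of 23 probes, beside 52.9% of all). The executioner Casp6 was 2.48 and 2.60 higher in cDC1s, Cycs (cytochrome c) 0.36 to 1.20 over 3 probes and Diablo 0.55. The initiator Casp8 was -1.07 and -1.20, the inhibitors Birc3 -1.01 and Birc2 -0.55, Fadd -0.52 and Htra2 -0.45. The apoptosome scaffold Apaf1 was -0.47 and -0.63 at 2 probes and 1.01 at another, and counts in both directions. Against monocytes 9 of 11 passed (14 of 23 probes, beside 53.4% of all), 3 higher in cDC1s (Casp6 1.49 and 1.58, Cycs 0.61 and 0.93, Diablo 0.52) and 6 lower. The lower ones were Casp8 (-1.34 and -1.52), Birc3 (-1.40), Apaf1 (-1.21 and -1.36), Htra2 (-0.51 and -0.56), Fadd (-0.32) and Birc2 (-0.27). Between macrophages and monocytes 6 of 10 passed (11 of 23 probes, beside 38.7% of all), with Fadd (0.29 to 0.36) and Birc2 (0.28) higher in macrophages, and Casp6 (-0.99 and -1.01), Apaf1 (-0.73 and -0.74), Birc3 (-0.40) and Casp8 (-0.27 and -0.32) lower. The median over the probes was -0.16 for macrophages against monocytes, -0.24 for cDC1s against macrophages and -0.09 for cDC1s against monocytes. Without WT cDC1 array 23 the higher Apaf1 probe no longer passed against macrophages (0.82, adjusted p = 0.183), nor did Birc2 (-0.11, adjusted p = 0.46) and Fadd (-0.33, adjusted p = 0.0824) against monocytes. By genotype 0 of 10 tested genes of this list passed with limma in monocytes and 0 of 10 in macrophages. An unadjusted p under 0.05 was found for 1 of 21 probes in monocytes and 6 of 23 in macrophages, beside 13.8% and 23.7% of all.

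Of the immediate early and heat shock list, 9 of 13 tested genes were higher in macrophages than in monocytes, from Junb (0.22) to Hspa1a (1.16 and 1.37). By probe 10 of 15 passed, all higher, where 38.7% of all tested probes passed and 20.6% were higher. Between cDC1s and macrophages 10 of 13 passed (10 of 16 probes, beside 52.9% of all), with Hspa1a (0.96) and Hspa1b (1.11) higher in cDC1s and 8 lower, from Fos (-0.35) to Ier3 (-1.85). Against monocytes 9 of 13 passed (11 of 15 probes, beside 53.4% of all), 5 higher (Hspa1b 1.22 and 1.78, Hspa1a 1.01 and 1.49, Dnajb1 0.78, Fosb 0.56 and Ier2 0.43) and 4 lower in cDC1s (Ier3 -2.01, Junb -0.95, Dusp1 -0.35 and Zfp36 -0.35). The higher calls rested in part on array 23. Without it Hspa1a (-0.03, adjusted p = 0.879) and Hspa1b (0.04, adjusted p = 0.859) did not pass against macrophages and the 8 lower genes did. Against monocytes 4 genes were then higher and 3 lower, without Ier2 (0.35, adjusted p = 0.147) and Zfp36 (-0.37, adjusted p = 0.075). The medians over the probes with all arrays were 0.58, -0.28 and 0.24 in the order of these comparisons. By genotype 1 of 13 passed in monocytes (Fosb, -0.77, adjusted p = 0.00519), 1 of 15 probes beside 1.80% of all. In macrophages 0 passed, and 3 of 15 probes had an unadjusted p under 0.05, beside 23.7% of all.

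Splenic CD4 T cells had 1 array per genotype and were set beside the colon arrays after all 27 were normalized together, with no test. Their T cell list mean was 11.11 in WT and 10.96 in Mbd2-/-, against at most 7.26 on any colon array. The neutrophil list mean was 7.15 on the WT and 5.88 on the Mbd2-/- T cell array. Bbc3, which encodes PUMA, read 8.61 in WT and 8.19 in Mbd2-/- T cells, above the 6.93 to 7.81 of the colon arrays. Bcl2l11 read 7.69 and 7.84, below the 8.91 to 11.07 of the colon arrays. Mcl1 read 11.30 and 10.85, below 11.55 to 13.02. The other 7 leading probes had at least 1 T cell array within the colon range. Mdm2 read 9.48 and 9.35 (colon 8.33 to 11.14) and Pmaip1 6.46 and 6.25 (colon 4.38 to 9.64). Bax read 9.31 in WT and 10.54 in Mbd2-/- T cells, the latter above the colon range of 8.51 to 9.89. The Bcl2 probe of variant 1 read 7.67 and 8.18, above its highest colon array (6.69), while the probe of variant 2 read 6.05 and 5.89, within the colon range of 5.36 to 6.45. With median scaling 1 in place of 3 of the 10 leading probes lay outside the colon range on both T cell arrays.

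**Figure D5:**
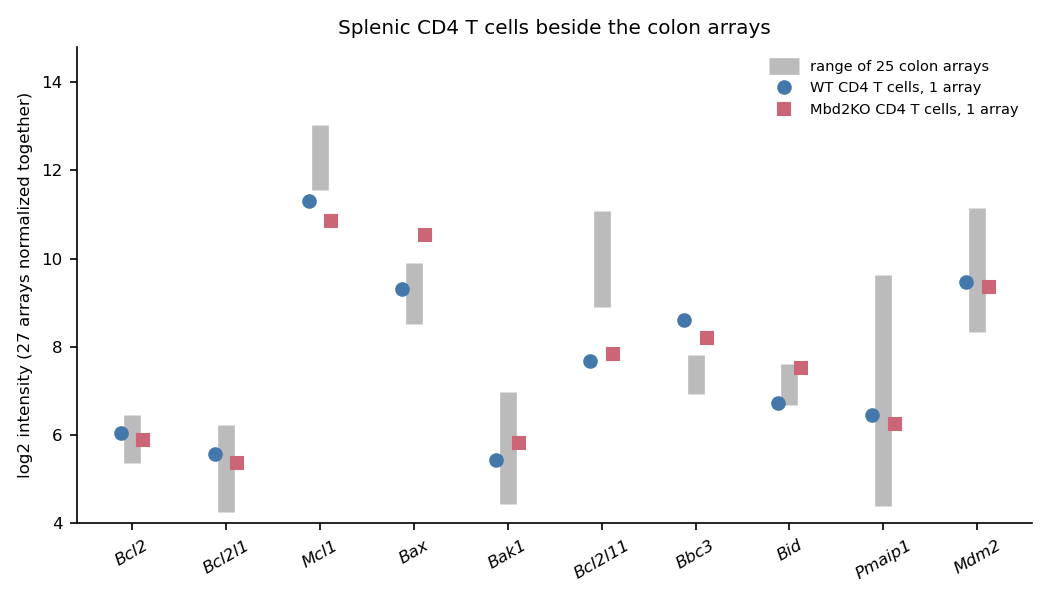
Log2 intensity of the leading probe of each member on the WT and Mbd2-/- splenic CD4 T cell arrays (1 array each), beside the range of the 25 colon arrays (grey bars), with all 27 arrays normalized together. Bbc3 lies above the grey bar for both genotypes, and Bcl2l11 and Mcl1 lie below it. Levels of different genes cannot be compared with each other.

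The probes whose pattern over the 25 colon arrays was most like that of Pmaip1, among 19761 probes detected on at least 5 of them, were those of Rfwd2 (Pearson r = 0.967), which encodes the p53 ligase COP1, Dars (0.963), which encodes a tRNA synthetase, AA536717 (0.955), Drg1 (0.954) and Adnp (0.954). Without array 23 these values were 0.92 to 0.95. For Mdm2 they were Tbk1 (0.972), a kinase of the interferon response, Socs3 (0.969), an inhibitor of cytokine signalling, Mefv (0.969), AI504432 (0.967) and Casp4 (0.967), an inflammatory caspase, and all 5 were 0.97 without array 23. The points share cell types and normalization, so these values describe likeness over these arrays and carry no p.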

How the data were processed

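The members and all gene lists were chosen with earlier results of these data known. Per the file headers the authors deposited intensities (mean bead brightness per probe) from GenomeStudio without normalization or background subtraction, with detection p-values computed by that software, and bead counts that were deposited beside them. The submitters' processing notes name lumi and limma without a role. 3 further per-array signal columns belong to no sample and were not used. Here the background was corrected with normexp on 936 negative control probes (offset 16), the 25 colon arrays were quantile normalized (all 27 for T cells), and log2 values were fitted with limma 3.58.1 in R 4.3.3 as means of 6 groups. Tests were two-sided, with Benjamini-Hochberg adjustment over all tested probes of a comparison. Testing was limited to probes with a detection p under 0.05 on a number of arrays no lower than the size of the smaller compared group. A gene counts as passed where any of its probes does. Named were all members, their leading probe (highest mean over 25 colon arrays) with other probes where they differed, the 5 symbols most like Pmaip1 and Mdm2, and list genes that passed where a member did. List genes that passed by genotype in monocytes or macrophages, where no member did, were named after their values were seen. 1 gene of the caspase list is not reported here and was left out of its counts. All 23 probe accessions matched RefSeq with the same symbol, and promoters came from RefSeq GRCm38.p6. Precision is limited by how many arrays there are. Scripts were tested on simulated data. Alternatives were the offset, no background correction, median scaling, cyclic loess, other filters, array weights, compared arrays alone, column position in sixes as a random block, one genotype alone, stricter thresholds, and each array left out in turn. The pathway lists without WT cDC1 array 23 were added after seeing the data.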

Additional observations from a re-analysis of the deposited data

Results flagged for a closer look

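Both results here are single arrays that lay far from the other 4 of their group by Dixon's test, which was run on the leading probe of each member in the 4 groups of 5 arrays. In WT macrophages array 15 read 5.37 for Pmaip1, where the other 4 arrays read 4.39 to 4.61, a gap of 0.778 of the group's range. The same array read 5.30 for Bcl2l1, where the others read 4.31 to 4.48, a gap of 0.832. These were 2 of 40 tests, and chance flags about 1 group in 20 where values are normally distributed. In WT macrophages the leading probe was detected on 2 of 5 arrays for Pmaip1 and on 1 of 5 for Bcl2l1. Most of the other values therefore lay near background, where that rate need not hold. Without array 15 the count of member probes that passed between Mbd2-/- and WT macrophages was 1 in place of 0, through the second probe of Bcl2l11.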

How the results depend on the processing

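No paired analysis was possible because the labels number each array without saying which mice or experiment it came from. Whether arrays of different cell types share mice is therefore unknown, and the tests treat all arrays as independent. With the cDC1 groups of 2 and 3 arrays, a fit without a WT array assumes that the lone array varies like the other groups. Nothing is read from the counts by genotype in cDC1s given below, since Pmaip1 and Mdm2 were put forward from that contrast. Counts of passed member probes changed by more than 1.5 times as follows. An adjusted p under 0.01 with a log2 difference of at least 1 left 3 probes between cDC1s and macrophages, 6 between cDC1s and monocytes, 1 between macrophages and monocytes and 1 between genotypes in cDC1s. In cDC1s by genotype (4) median scaling gave 1, no filter 2, array weights 1 and these arrays alone 0. By genotype in macrophages (0) cyclic loess gave 1, and in monocytes (0) array weights gave 1 and these arrays alone 1. In T cells median scaling left 1 gene of 3 outside the colon range. Leaving out one array gave 9 to 13 between cDC1s and macrophages, 8 to 10 between cDC1s and monocytes, 7 to 9 between macrophages and monocytes, 1 to 4 by genotype in cDC1s (2 without WT array 23, 1 without Mbd2-/- array 28, 2 without array 30), 0 to 2 in macrophages (1 without WT array 15, 2 without Mbd2-/- array 17), and 0 to 0 in monocytes and for the difference of genotype effects.

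Outside the cDC1 genotype contrast, signs turned only for leading probes that had not passed, with 1 exception, Pmaip1 in cDC1s against macrophages with Mbd2-/- arrays alone (-0.77). Under median scaling, which shifted the median of all probes by -0.23 in the monocyte genotype comparison, the values there became -0.06 (Bak1), -0.02 (Bax), -0.25 (Bbc3), -0.14 (Mdm2) and -0.03 (Pmaip1). It also gave Mdm2 -0.03 by genotype in macrophages, Bcl2l1 0.03 in macrophages against monocytes and Bbc3 -0.46 in cDC1s against macrophages. Array weights gave Bbc3 -0.02 by genotype in monocytes, cyclic loess gave Mcl1 0.02 by genotype in macrophages, and an offset of 50 gave Bcl2l1 0.00 in macrophages against monocytes. WT arrays alone gave Bax 0.16 and Pmaip1 -0.31 in macrophages against monocytes and Bbc3 -0.07 in cDC1s against macrophages. Mbd2-/- arrays alone gave Mcl1 0.02 in macrophages against monocytes, Bax 0.42 and Bid 0.15 in cDC1s against macrophages, and Bak1 0.12 and Bax 0.24 in cDC1s against monocytes. In cDC1s by genotype, described without a test, Bbc3 turned under median scaling (-0.26) and Bid under median scaling (-0.39) and cyclic loess (-0.02). With one array left out, signs turned there for Bcl2l1 (-0.78 to 0.19), Bbc3 (-0.25 to 0.56) and Bid (-0.14 to 0.16), in monocytes by genotype for Bbc3 (-0.03 to 0.10) and Pmaip1 (-0.11 to 0.24), in macrophages against monocytes for Bax (-0.05 to 0.04) and Bcl2l1 (-0.10 to 0.08), in cDC1s against macrophages for Bax (-0.24 to 0.16) and Bbc3 (-0.10 to 0.31), and in cDC1s against monocytes for Bak1 (-0.26 to 0.02), Bax (-0.25 to 0.15) and Bbc3 (-0.40 to 0.01). Besides these, of the single-gene values under settings that kept every array, 23 lost and 6 gained a pass with the same direction, 7 untested ones moved by more than the spread and 587 did none of these. The random block changed no count. Signs for the difference of genotype effects are not in the list above, and none of its leading probes had passed. Under median scaling they turned there for Bcl2 (-0.03 to 0.22), Bcl2l1 (-0.04 to 0.10), Mdm2 (-0.01 to 0.11), Bbc3 (-0.23 to 0.03) and Bid (-0.14 to 0.13). The causes were not tested.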
